A study of Homo sapiens with 6 samples.

Results

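The youngest L1 elements were followed here through 5 names of a repeat quantification, L1HS, L1PA2, L1PA3, L1PA4 and L1. They were chosen from 1047 sequences by a rule on the name, with earlier results of these data known. All 5 had counts in each of the 6 libraries, and all 5 passed the filter on low counts. The libraries came from H1, an established line of human embryonic stem cells, used between passages 40 and 60 and grown without feeder cells at 5% oxygen in mTeSR1 medium with puromycin and Blasticidin S. Every library carried a hairpin RNA against EXOSC3 that doxycycline (dox) switches on, and there was no library without the hairpin. PB cells also carried an empty vector and gave 1 library without dox and 1 with dox. EXOSC3r cells instead carried an EXOSC3 transgene that the hairpin cannot target, in 2 clones, each with 1 library without dox and 1 with dox. Each EXOSC3r library therefore stands for a single clone, and PB has no replicate in either arm. The design asks how L1 RNA responds to dox, which switches the hairpin on, without and with the transgene. Since every library carried the hairpin, an effect of dox itself within a line cannot be told apart from that of the hairpin.

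L1, or LINE-1, is a retrotransposon that copies itself through RNA. Its full-length transcript starts from an internal promoter and encodes ORF1p, a protein that binds the L1 RNA, and ORF2p, which nicks DNA and reverse transcribes the RNA into the gap. The same machinery moves Alu and SVA elements, which encode no such enzymes. L1HS is the human-specific group that holds the copies still able to move, and in the L1PA names a higher number means an older primate group. L1 RNA is known to be present in human pluripotent cells. EXOSC3 is a subunit of the RNA exosome, the nuclease complex that digests RNA 3′ to 5′ in the nucleus and the cytoplasm.

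The names do not cover the same part of the element. L1HS was listed with 6064 bases and L1 with 5403, whereas L1PA2, L1PA3 and L1PA4 were each listed with 902 bases. The series holds no longer entry for L1PA2, L1PA3 or L1PA4, so RNA from the remaining part of such copies could be assigned only to other names. The name L1 carries no age, and whether it is as young as the others was not tested. A consensus name stands for many genomic copies on many chromosomes and has no single position, so no coordinate applies, and the sequences of the 5 entries were not analysed here. Estimated counts of all 5 names were fractional in 6 of 6 libraries, which marks reads divided between names. Counts were fractional in every library for 16 of 17 older L1PA names and for 400 of 699 tested sequences (57.2%). For this reason each name and the sum of the 5 are given side by side.

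Between 3745262 and 5260196 estimated counts per library were assigned to the 1047 sequences, which is not the sequencing depth. Alu alone took between 32.99% and 52.5% of them, most in clone 1 with dox. EXOSC3 itself was not analysed here, so neither its depletion nor its rescue was checked.

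The 5 names together were among the most counted repeat RNAs. The sum received 533897 estimated counts in PB cells without dox and 650191 with dox, 398352 and 381184 in clone 1, and 420603 and 423639 in clone 2. As a share of assigned counts this was 11.9% in PB cells, with an exact binomial (Clopper-Pearson) 95% interval from 11.85 to 11.91, and 14.2% after dox (14.21 to 14.27). Clone 1 had a share of 8.62% (8.60 to 8.65) before and 7.25% (7.22 to 7.27) after dox, and clone 2 one of 10.7% (10.64 to 10.70) and 11.3% (11.28 to 11.34). These intervals cover counting error only, and reads without molecular identifiers are not independent molecules. PB with dox had the highest share and clone 1 with dox the lowest. These are the libraries with the lowest and the highest share of Alu, 32.99% and 52.5%, and the part of Alu in the L1 shares was not tested. All 114 names beginning with L1 took between 15.1% and 28.2% of assigned counts, and the 5 names took between 47.7% and 50.5% of that.

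**Figure D1:**
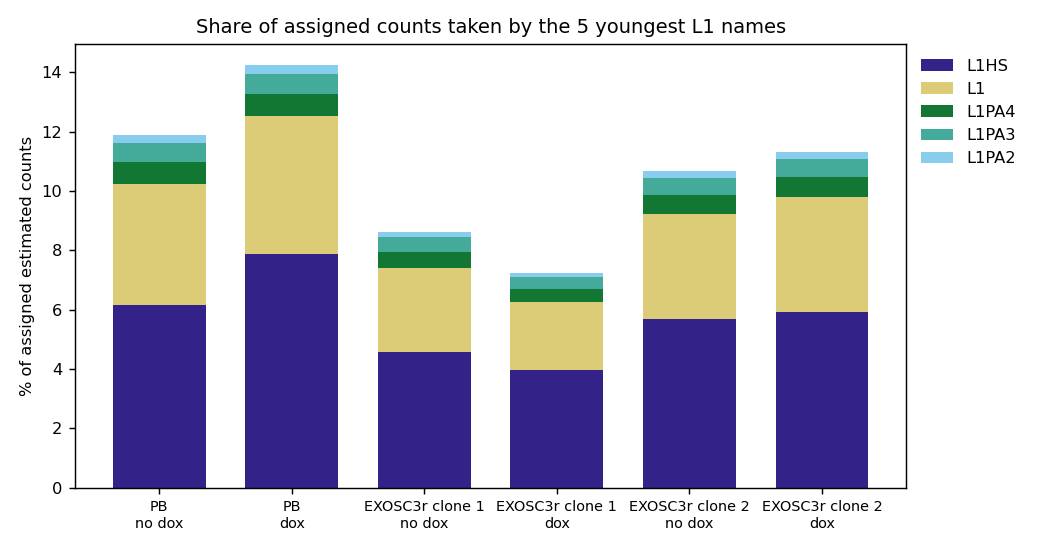
Stacked bars give the percentage of assigned estimated counts (y axis) that each of the 5 names took in each of the 6 libraries (x axis), without error bars. L1HS and L1 make up most of every bar, and the bars run from 7.25% in clone 1 with dox to 14.2% in PB cells with dox.

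L1HS held most of the counts. It was the 2nd to 4th most counted of all 1047 sequences in every library, and it took between 51.9% and 55.4% of the sum. L1 was the 5th most counted in each library and took between 31.8% and 34.3% of the sum. L1PA4 took 5.20% to 6.27%, L1PA3 4.93% to 5.67% and L1PA2 2.01% to 2.16%. The long entries L1HS and L1 collect reads over a greater length, so levels were compared between names only per length, in the deposited TPM values.

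Per length, the order was much closer. In PB cells without dox L1HS stood at 3065 TPM, L1PA4 at 2884, L1PA3 at 2629, L1 at 2283 and L1PA2 at 1015. The same order held in clone 1 without dox (1981, 1883, 1680, 1368 and 653 TPM) and in the other 4 libraries. Among all sequences ranked by TPM, L1HS was 10th to 14th, L1PA4 14th to 16th and L1PA3 15th to 17th. L1 was 19th to 23rd and L1PA2 40th to 45th. L1HS was between 1.05 and 1.33 times as high as L1PA4 per length and between 1.34 and 1.53 times as high as L1. L1PA2 was the lowest per length, with L1PA4 between 2.58 and 2.89 times as high and L1PA3 between 2.41 and 2.60 times as high. TPM values are scaled within a library, so they were not used to compare a name between libraries. L1HS was only 1.05 to 1.14 times as high as its neighbour L1PA4 in 5 libraries, and the division of reads between them is an estimate. The TPM of L1HS averages over 6064 bases and that of L1PA4 over 902. RNA from the remaining part of L1PA4 copies could be assigned only to other names. The ratios therefore compare entries, not the RNA of whole L1HS and L1PA4 copies.

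Between libraries, values are given as CPM scaled by TMM, which sets counts to a common library size on the assumption that most sequences do not change. On this scale L1HS was at 54061 CPM in PB cells and 65032 with dox, at 52535 and 53252 in clone 1, and at 56096 and 54093 in clone 2. The PB library with dox was the highest of the 6, and the other 5 lay between 52535 and 56096. A change in the number of cells with L1HS RNA and a change in L1HS RNA per cell cannot be told apart in such bulk libraries.

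L1PA2 was at 2212 CPM in PB cells and 2361 with dox, at 2136 and 2031 in clone 1, and at 2202 and 2143 in clone 2. L1PA3 was at 5832 and 5790 CPM in PB cells, at 5598 and 5368 in clone 1, and at 5756 and 5648 in clone 2. L1PA4 was at 6311 and 6108 CPM in PB cells, at 6191 and 5791 in clone 1, and at 6187 and 6112 in clone 2. For L1PA3 and L1PA4 the highest library was PB without dox, unlike L1HS and L1PA2, for which it was PB with dox. Clone 1 with dox was the lowest library for all 3 L1PA names.

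The entry L1 was at 35757 CPM in PB cells and 38113 with dox, at 32223 and 30988 in clone 1, and at 34917 and 35180 in clone 2. The sum was at 104174 CPM in PB cells, 117405 in PB cells with dox, 98683 and 97431 in clone 1, and 105157 and 103176 in clone 2. Its highest library was 1.21 times its lowest. For single names this ratio was 1.24 for L1HS, 1.23 for L1, 1.16 for L1PA2 and 1.09 for both L1PA3 and L1PA4. Among the 253 sequences with a mean of at least 100 CPM the median ratio was 1.17. PB with dox was the highest library for 3 of the 5 names, beside 20.3% of all tested sequences.

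**Figure D2:**
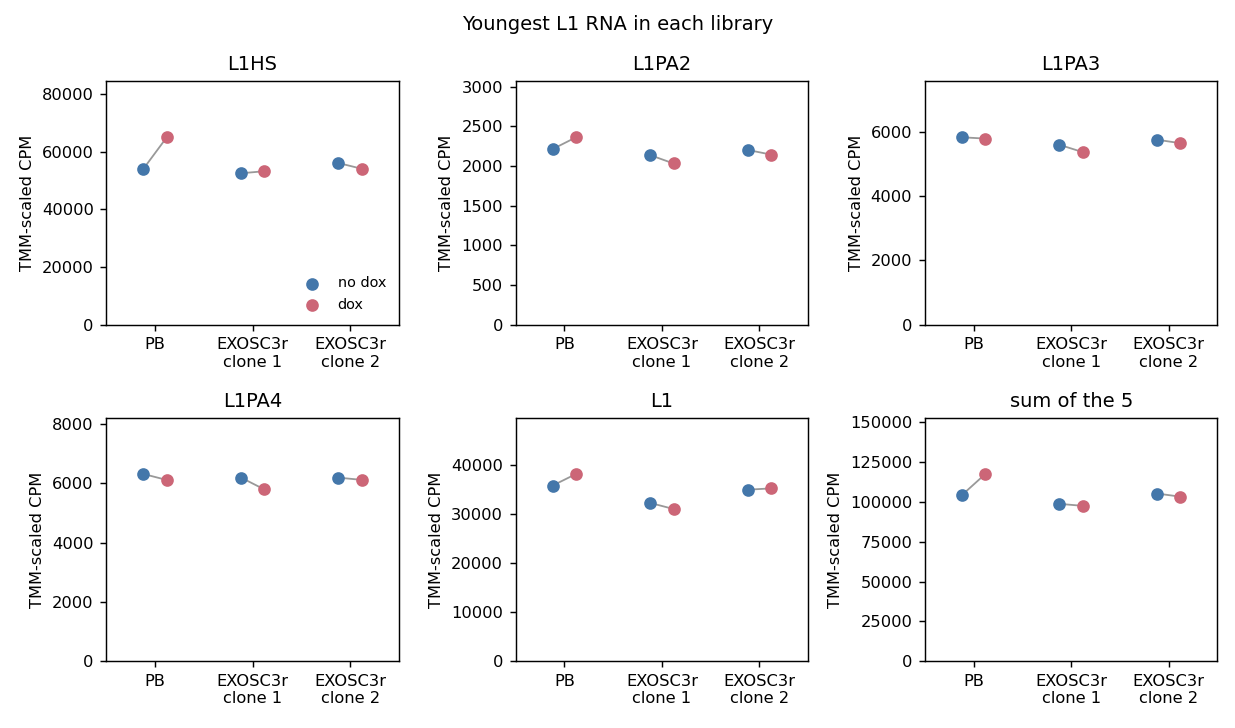
Points give TMM-scaled CPM (y axis, from 0) of each name and of the sum in the 3 lines (x axis), blue without dox and red with dox, joined within a line; each point is 1 library. L1HS in PB cells with dox, at 65032 CPM, stands above the other 5 libraries, which lie between 52535 and 56096.

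In PB cells, dox was followed by no change that passed in any of the 5 names (edgeR quasi-likelihood test, Benjamini-Hochberg adjusted over 699 sequences, 0 of 5 also at an unadjusted p under 0.05, and 0 of 5 by DESeq2 and by limma). Over all sequences tested 0.858% passed. L1HS had the largest value, a log2 change of 0.27 ± 0.13 (SE, 95% interval -0.06 to 0.59, adjusted p = 1.00), which is 1.20-fold. L1PA2 had 0.09 ± 0.10, L1 had 0.09 ± 0.15, L1PA3 had -0.01 ± 0.10 and L1PA4 had -0.05 ± 0.10. The median of the 5 was 0.09, beside 0.0037 over all tested sequences. The sum had a log2 change of 0.17 ± 0.16 (95% interval -0.21 to 0.55, adjusted p = 1.00 over 695 sequences, of which 0.863% passed). Since PB had 1 library per arm, the error comes from the spread between clones. The line as a replicate block suits responses measured within lines but leaves 1 residual degree of freedom. With it, L1HS again had 0.27, with a narrower 95% interval of 0.15 to 0.39. The sum had 0.17 (95% interval 0.09 to 0.25), and neither passed after adjustment.

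In EXOSC3r cells all 5 names had values near 0, and 0 of 5 passed (edgeR, 0 of 5 at an unadjusted p under 0.05, and 0 by DESeq2 and limma), beside 0.143% of all sequences. L1HS was at 54315 ± 2518 CPM (SD, n = 2 clones) without and 53673 ± 595 CPM with dox, a log2 change of -0.02 ± 0.10 (SE). L1PA2 went from 2169 ± 46.1 to 2087 ± 79.2 CPM, L1PA3 from 5677 ± 112 to 5508 ± 198 CPM, and L1 from 33570 ± 1905 to 33084 ± 2964 CPM. The range of these values with and without dox overlapped for L1HS, L1PA2, L1PA3 and L1. L1PA4 went from 6189 ± 2.92 to 5951 ± 227 CPM and was the only name whose clones did not overlap, being lower with dox, as were 14.7% of all tested sequences. Its log2 change was -0.06 ± 0.07 (95% interval -0.23 to 0.12). The sum went from 101920 ± 4577 to 100304 ± 4063 CPM, a log2 change of -0.02 ± 0.11 (95% interval -0.29 to 0.24, adjusted p = 1.00, with 0.144% passing). The sign of the sum turned when either the dox library of clone 1 (0.013) or the untreated library of clone 2 (0.013) was left out. With the line as a replicate block the sum had -0.02 ± 0.02 and L1HS -0.02 ± 0.03, and neither passed.

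Within each clone the dox ratio of the sum was 0.99 in clone 1 and 0.98 in clone 2 in TMM-scaled CPM, against 1.13 in PB cells. Other scales moved the clones apart. Relative to all assigned counts the ratio was 0.84 in clone 1, 1.06 in clone 2 and 1.20 in PB cells. Relative to the summed counts of ACTB and GAPDH, a cytoskeletal and a glycolytic transcript used as references, it was 0.88, 1.08 and 1.27. On all 3 scales PB cells had the highest ratio, the ratio in clone 1 was under 1 on each, and only clone 2 changed direction with the scale. L1HS had dox ratios of 1.20 in PB cells, 1.01 in clone 1 and 0.96 in clone 2 in CPM, and relative to ACTB and GAPDH of 1.35, 0.91 and 1.06.

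**Figure D3:**
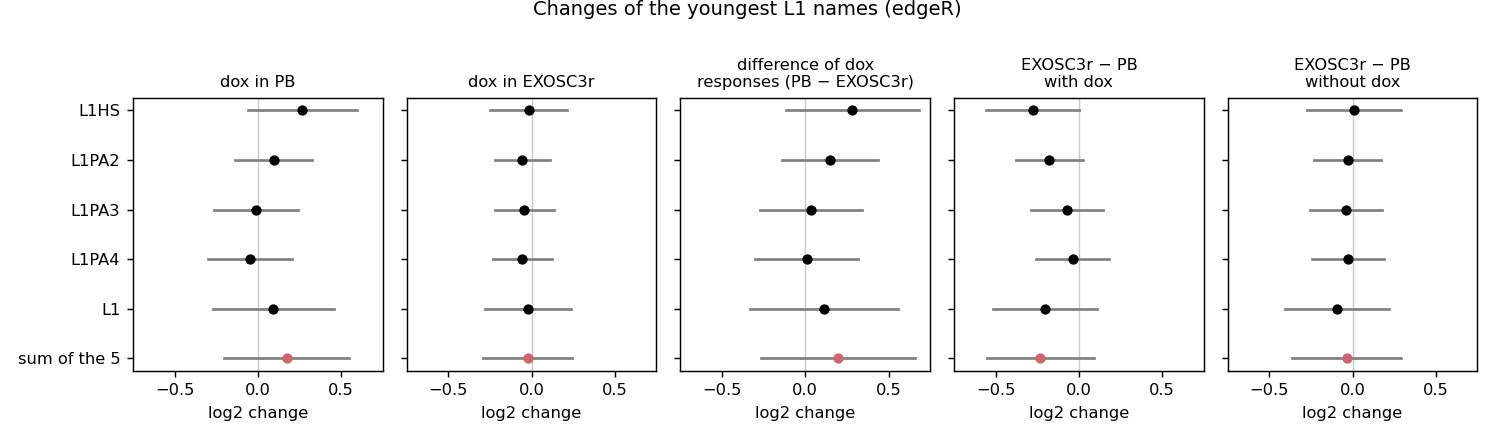
Points give the log2 change (x axis) of each name and, in red, of the sum in the 5 comparisons, with bars for the 95% interval of the edgeR fit. The interval includes 0 for every point, and L1HS has the points farthest from 0, 0.27 for dox in PB cells and -0.28 for EXOSC3r against PB with dox.

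Tested directly, the difference in dox response between PB and EXOSC3r cells passed for none of the 5 names in the interaction test (edgeR, 0 of 5, 0 of 5 at an unadjusted p under 0.05, and 0 by DESeq2 and limma), and 0% of all sequences passed. L1HS had a log2 response in PB cells that exceeded that in EXOSC3r cells by 0.28 ± 0.17 (95% interval -0.12 to 0.68, adjusted p = 1.00). For L1PA2 the difference was 0.15 ± 0.12, for L1 0.11 ± 0.18, for L1PA3 0.03 ± 0.13 and for L1PA4 0.0094 ± 0.13. The sum differed by 0.20 ± 0.19 (95% interval -0.27 to 0.66, adjusted p = 1.00, with 0% of 695 sequences passing). With dox, the sum and L1PA2 had higher values in PB cells and lower ones in both clones, a pattern shared by 11.3% of 688 sequences with counts in every library. With the line as a replicate block, the difference of the sum was again 0.20 ± 0.04 (95% interval 0.10 to 0.30, edgeR, adjusted p = 0.29). That of L1HS was again 0.28, with an SE of 0.06 (95% interval 0.14 to 0.43). Neither passed after adjustment.

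With dox, EXOSC3r cells had lower values than PB cells for all 5 names, and 0 of 5 passed (edgeR, 0 of 5 at an unadjusted p under 0.05, and 0 by DESeq2 and limma), beside 1% of all sequences. L1HS measured 53673 ± 595 CPM in the clones (SD, n = 2) and 65032 CPM in the PB library, which gives a log2 difference of -0.28 ± 0.12 (95% interval -0.56 to 0.0029, adjusted p = 0.61). L1 differed by -0.20 ± 0.13, L1PA2 by -0.18 ± 0.08, L1PA3 by -0.07 ± 0.09 and L1PA4 by -0.04 ± 0.09. Both clones lay under the PB library for 4 of the 5 names, all but L1PA4, as they did for 33.6% of all tested sequences. Without dox both clones also lay under the PB library for L1PA2, L1PA3, L1PA4 and L1, but not for L1HS. The share of all sequences with that position without dox was not counted. The sum differed by -0.23 ± 0.13 (95% interval -0.55 to 0.09, adjusted p = 0.81, with 1.01% passing). With the line as a replicate block L1HS passed (-0.28 ± 0.04, adjusted p = 0.046, beside 1.72% of sequences called lower) and so did the sum (-0.23 ± 0.03, adjusted p = 0.0073, beside 2.01%). This comparison lies between lines, and the block removes the spread between clones from its error and leaves 1 residual degree of freedom.

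Without dox, no difference between EXOSC3r and PB cells passed among the 5 names (edgeR, 0 of 5, 0 of 5 at an unadjusted p under 0.05, and 0 by DESeq2 and limma), beside 0% of all sequences. The log2 differences lay between -0.09 ± 0.13 for L1 and 0.0068 ± 0.12 for L1HS. The clones averaged 54315 ± 2518 CPM of L1HS (SD, n = 2), and the PB library held 54061 CPM. The sum differed by -0.03 ± 0.13 (95% interval -0.36 to 0.29, adjusted p = 0.98, with 0% passing). These differences hold relative to most repeats. Relative to ACTB and GAPDH, the sum was 88.7% of their counts in PB cells, 50.7% in clone 1 and 74.5% in clone 2, and with dox it was 113%, 44.8% and 80.2%. On that scale both clones were under PB cells with and without dox, and the median of all tested sequences was shifted by -0.63 and -0.47 in the same direction. The scaled differences of the sum were -0.85 ± 0.31 with dox and -0.50 ± 0.31 without, and neither passed (adjusted p = 0.64 and 0.83).

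The ratio of 2 names within a library does not depend on its scaling. L1HS had 8.57 times the counts of L1PA4 in PB cells and 10.6 times with dox. The ratio in clone 1 was 8.49 untreated and 9.20 with dox, and that in clone 2 was 9.07 and 8.85. PB with dox was thus above the other 5 libraries. The same held for L1HS against L1PA3, at 9.27 and 11.2 in PB cells and between 9.39 and 9.92 in the clones, and for L1HS against L1PA2, at 24.4 and 27.5 in PB cells and between 24.6 and 26.2 in the clones. Against L1 it did not hold: the ratio was 1.51 and 1.71 in PB cells, 1.63 and 1.72 in clone 1, and 1.61 and 1.54 in clone 2, so that clone 1 with dox was the highest. These ratios were not tested.

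The relatives of the 5 names were then compared. Of 17 older L1PA names, from L1PA5 upward, 0 passed in any of the 5 comparisons, and so did 0 of 8 L1PB names and 0 of 73 tested L1M names, the groups from older primate and mammalian ancestors (edgeR). Without adjustment, p was under 0.05 for 0 L1PA and L1PB names, and at most 1 L1M name per comparison. The median log2 change with dox in PB cells was -0.02 for older L1PA, -0.01 for L1PB and 0.01 for L1M, beside 0.09 for the 5 names. Of the most abundant older names, L1PA7 was at 5606 CPM in PB cells and 5672 with dox (log2 change 0.02 ± 0.10) and L1PA6 at 4242 and 4343 CPM (0.03 ± 0.13). L1PA5 was lower with dox, at 4114 and 4054 CPM (-0.02 ± 0.11). L1PB2c, listed with 6582 bases, was at 13941 and 14240 CPM (0.03 ± 0.12). L1PB1 was at 2047 and 2037 CPM (-0.0068 ± 0.10) and L1PBA_5 at 1906 and 1853 CPM (-0.04 ± 0.11).

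Among L1HS and the numbered names without a suffix, the PB response was highest at L1HS, at 0.27, and second at L1PA2, at 0.09. From L1PA3 to L1PA16 these values lay between -0.09 and 0.03, each with an SE of 0.09 to 0.13. In EXOSC3r cells the values along the same names lay between -0.13 (L1PA12) and 0.03 (L1PA13), with L1HS at -0.02. The numbered names ending in _5, longer entries from older groups, did not follow this order. In PB cells L1PA14_5 had 0.18 ± 0.22 and L1PA12_5 0.12 ± 0.10, both above L1PA2. L1PA7_5 had 0.04 ± 0.09 and L1PA13_5 -0.01 ± 0.09, both below L1PA2, and L1PA16_5 went from 705 to 743 CPM. L1PA17_5, which averaged under 100 CPM, had -0.71 ± 0.69, and none of these names passed. L1HS is listed with 6064 bases, whereas the numbered names without a suffix have between 901 and 921. The long entries L1 (5403 bases) and L1PB2c (6582 bases) had 0.09 ± 0.15 and 0.03 ± 0.12 in PB cells. The part of length in the pattern was not tested.

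**Figure D4:**
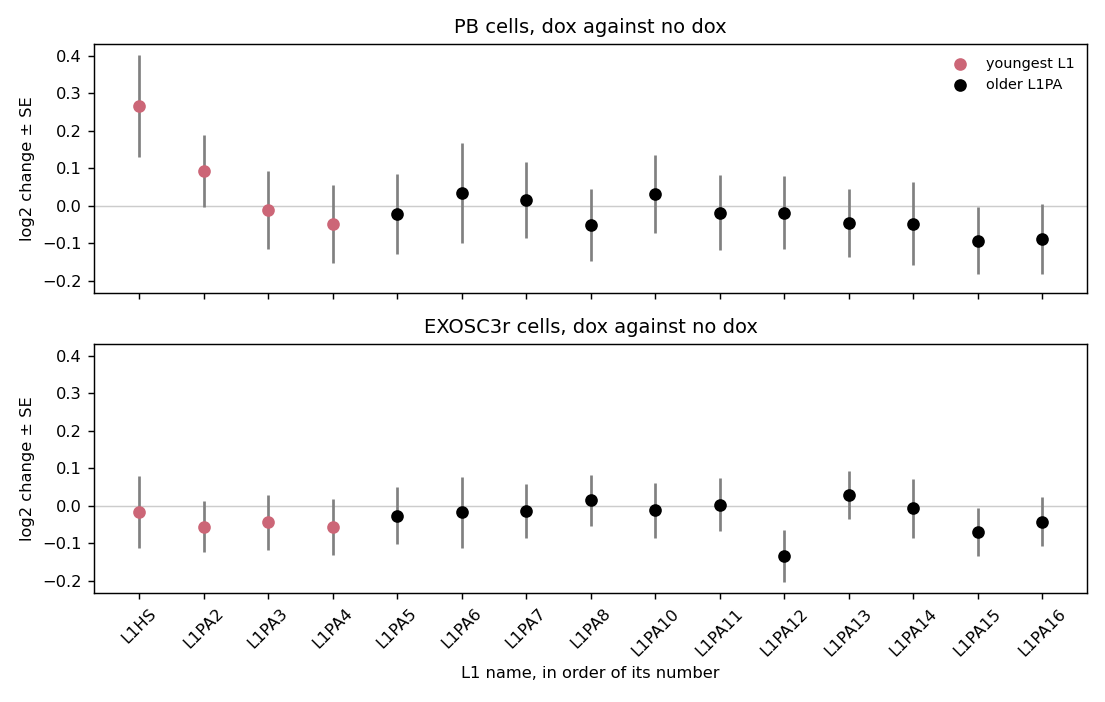
Points give the log2 change with dox (y axis) of L1HS and the numbered L1PA names without a suffix (x axis, in order of their number), with bars of 1 SE from the edgeR fit, for PB cells above and EXOSC3r cells below. L1HS in PB cells, at 0.27 ± 0.13, is the highest point, and no point passed the test.

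Counts of the 5 names together were 3.07 times those of the 17 older L1PA names in PB cells and 3.47 times with dox. The ratio in clone 1 was 3.09 untreated and 3.07 with dox, and that in clone 2 was 3.16 and 3.10. Against L1PB the ratio was 5.07 and 5.67 in PB cells and between 5.20 and 5.28 in the 4 clone libraries. Against L1M it was 4.59 and 5.19 in PB cells and between 4.30 and 4.61 in the clones. PB with dox had the highest of the 6 values in each case, and these ratios were not tested either.

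**Figure D5:**
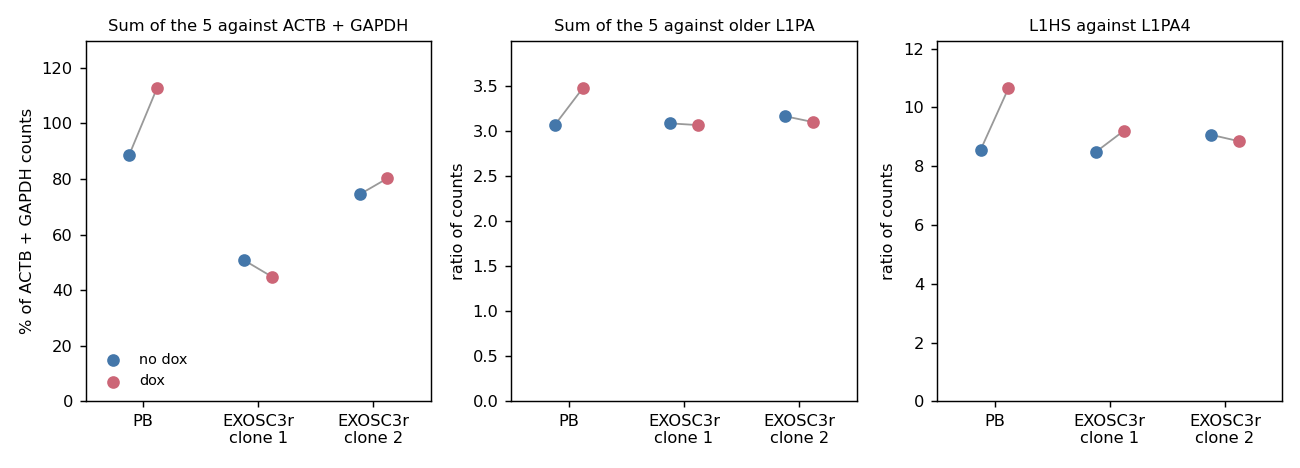
Points give, for each line (x axis), the sum of the 5 names as a percentage of ACTB and GAPDH counts (left), its ratio to older L1PA counts (middle) and the ratio of L1HS to L1PA4 counts (right), blue without and red with dox, each point being 1 library. The lines stand apart on the left, from 44.8% to 113%, while in the middle 5 libraries lie between 3.07 and 3.16 and PB with dox is at 3.47.

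Alu and SVA, the elements that L1 enzymes move, did not pass in any comparison either (edgeR, 0 of 3). An unadjusted p under 0.05 was reached by 1 of 3, ALU in EXOSC3r against PB under dox. So it was for 53 of 699 sequences in that comparison. The log2 difference of ALU there was 0.98 ± 0.39, higher in EXOSC3r cells. ALU was at 326992 CPM in PB cells and 271950 with dox, at 519924 and 706154 in clone 1, and at 412231 and 366090 in clone 2. Its log2 change was -0.27 ± 0.43 in PB cells and 0.20 ± 0.31 in EXOSC3r cells. SVA_A was at 6370 and 6761 CPM in PB cells, between 6460 and 6713 CPM in clone 1 and between 6180 and 6286 CPM in clone 2. As a percentage of Alu counts the sum of the 5 L1 names was 31.9% and 43.2% in PB cells, 19.0% and 13.8% in clone 1, and 25.5% and 28.2% in clone 2.

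The sequences whose pattern over the 6 libraries was most like the sum were L1M1_5, L1PB2c, MER41A, LTR10C and L1PA16_5. Likeness was the mean absolute difference of centred log2(CPM + 1) over 6 libraries, among 248 other sequences with a mean of at least 100 CPM. It was 0.03 for each of the 5, beside a median of 0.10 over all 248. L1M1_5 was at 2230 and 2333 CPM in PB cells, at 2032 and 2004 in clone 1, and at 2122 and 2145 in clone 2. L1PB2c and L1PA16_5, both primate L1 names, were also lowest in clone 1 and highest in PB with dox. MER41A and LTR10C, which are long terminal repeats of endogenous retroviruses, were highest in PB with dox at 852 and 712 CPM. Libraries share their depth and scaling across sequences, so this is a description only.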

How the data were processed

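Total RNA without ribosomal RNA was sequenced from stranded libraries, per the labels' protocols. bcl2fastq 2.17, Trimmomatic 0.36 and Salmon 0.13.0 were used, per the submitters' processing notes. Index, options and genome build are not given in the sources used here. The deposited tables hold, per the file headers, estimated counts (not normalised) and TPM values, scaled per length to a fixed total per library over 1047 sequences. ACTB and GAPDH were matched by RefSeq accession, and the labels' sample names gave the groups.

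Counts were rounded. Sequences with at least 10 counts in at least 1 library were tested (699 of 799 with any count) with edgeR 4.0.16 (R 4.3.3), the quasi-likelihood test, with a mean for each of the 4 groups, TMM scaling and a Benjamini-Hochberg threshold of 0.05. Only the clones give residual degrees of freedom (2), and PB libraries are taken to vary as the clones do. The p-values rest on the spread between clones, which the fit moderates for each sequence toward that of the other sequences. A second fit replaced the 5 names by their sum (695 sequences). The biological coefficient of variation was 12.2%. The SE is the log2 change divided by the square root of F, and 95% intervals use the fit's degrees of freedom, including those from the moderation. The code was tested on simulated counts. Each of the 15 pairs of libraries differed beyond counting noise (chi-square over its degrees of freedom, 22.2 to 902), so none was deposited more than once.

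The dox and untreated library of each clone share a line and are thus paired by its number; clone 1 deviations from the clone mean correlated between the untreated and dox libraries with a Pearson r of 0.15 across 699 sequences, which are not independent replicates. Alternatives were DESeq2 1.42.0 and its size factors, total counts, other count filters, limma 3.58.1 on log2(TPM + 1) and log2(TPM + 0.1), the line as a replicate block, leaving out each clone library, scaling to ACTB and GAPDH, and leaving these and Alu out. The members and lists were chosen with earlier results of these data known. All members are named, of each comparison list at most the 3 most abundant, and the 5 sequences of most like pattern. Alu was matched ignoring case. Also named, chosen after their values were seen, are L1PA12, L1PA13, L1PA7_5, L1PA12_5, L1PA13_5, L1PA14_5 and L1PA17_5.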

Additional observations from a re-analysis of the deposited data

Results flagged for a closer look

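The sum of the 5 youngest L1 names was higher with dox in PB cells and lower with dox in both EXOSC3r clones, in TMM-scaled CPM. The log2 responses differed by 0.20 ± 0.19 (SE, edgeR interaction test, adjusted p = 1.00), which did not pass. L1PA2 showed the same opposite directions, from 2212 to 2361 CPM in PB cells, from 2136 to 2031 in clone 1 and from 2202 to 2143 in clone 2. Its responses differed by 0.15 ± 0.12 (edgeR, adjusted p = 1.00), which did not pass. Of 688 sequences with counts in every library, 11.3% were likewise higher in PB cells and lower in both clones. Relative to ACTB and GAPDH the sum and L1PA2 were higher with dox in clone 2 (ratios 1.08 and 1.07), so the opposite directions did not hold on that scale. L1HS and L1, which hold most of the sum, did not show them in CPM either. Their dox ratios were 1.014 for L1HS in clone 1 and 1.008 for L1 in clone 2.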

How the results depend on the processing

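Causes were not tested. A shift of over 0.1 (log2) in the median sequence came with TPM, total counts or reference transcripts as the scale in at least 1 comparison, at most -0.77 (log2(TPM + 0.1), EXOSC3r against PB under dox). No member passed in any comparison under any alternative, except that 1 (L1HS, -0.28, adjusted p = 0.046) and the sum (-0.23, adjusted p = 0.0073) passed for EXOSC3r against PB under dox with the replicate block, which changed no other call of the members or the sum. The sum changed sign only when a clone library was left out, with log2 values from -0.072 to 0.013 for dox in EXOSC3r cells and from -0.082 to 0.013 for EXOSC3r against PB without dox. For dox in PB cells, L1PA3 changed sign with total counts (0.078), limma on TPM (0.21 with either pseudocount) and ACTB and GAPDH scaling (0.16), and L1PA4 with the same settings (0.041, 0.18 and 0.12). L1HS changed sign for EXOSC3r against PB without dox with DESeq2 size factors and DESeq2 (-0.0070 for both), total counts (-0.26), limma on TPM (-0.42 with either pseudocount), ACTB and GAPDH scaling (-0.46) and clone libraries left out (-0.036 to 0.053). For dox in EXOSC3r cells, L1 changed sign with ACTB and GAPDH scaling (0.011) and over the clone libraries left out (-0.12 to 0.062), and L1HS over the latter (-0.064 to 0.025). The L1PA4 difference of responses ranged from -0.022 to 0.048 over them. None of these values passed.

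The count of all sequences called moved more. For dox in PB cells (6 calls) it was 2 with total counts, 3 with limma on log2(TPM + 1) and 1 with ACTB and GAPDH scaling. For dox in EXOSC3r cells (1 call) it was 0 with DESeq2 size factors, total counts and ACTB and GAPDH scaling, 4 with DESeq2 and with limma on log2(TPM + 0.1), 2 with at least 10 counts in all 6 libraries, 9 with the replicate block, 3 without Alu, ACTB and GAPDH, and 0 to 4 over clone libraries left out. For the difference of responses (0 calls) it was 1 with total counts and with ACTB and GAPDH scaling, 2 with the stricter filter, 3 with DESeq2, limma on log2(TPM + 1), the replicate block and without Alu, ACTB and GAPDH, 6 with limma on log2(TPM + 0.1), and 0 to 1 over clone libraries left out. For EXOSC3r against PB under dox (7 calls) it was 3 with total counts, 4 with limma on log2(TPM + 1), 22 with the replicate block, 1 with ACTB and GAPDH scaling, and 0 (without clone 1 with dox) to 21 (without clone 2 with dox) over clone libraries left out. Without dox (0 calls) it was 1 with total counts, limma on log2(TPM + 1) and ACTB and GAPDH scaling, 2 with limma on log2(TPM + 0.1), and 0 to 2 over clone libraries left out.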
